A study of Mus musculus with 6 samples.

Results

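Gene expression was compared between MC3T3-E1 cells harvested at the end of 1 h of continuous fluid flow and MC3T3-E1 cells kept without flow, on 1 pooled array each. MC3T3-E1 is an established osteoblastic line from mouse calvaria, used here as 1 clone. The genes described were the 5800 of the 8729 named genes in the deposited table whose mean log2 signal over the 6 arrays of the series exceeded 6, with the brightest probe standing for each gene. The filter used mean level and not the difference. That mean includes CF0, so a dim gene with a high CF0 level passes it more easily. At its edge, Trak1 and Zfp266 lay just outside it, with log2 differences of 0.08 and 0.12, and Phf2 and Psmd9 just inside it, with -0.05 and 0.06.

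Both groups grew in the same serum-containing medium on the same kind of multiwell plate, and the plates stood on an orbital shaker inside an incubator before flow began. Continuous flow (CF) was unbroken orbital shaking, which sends a rotating wave over the cell layer and applies a pulsing shear stress, whereas the no flow (NF) plates were not shaken. The remaining arrays held rest-inserted flow (RF), given as 4 bouts of 5 min of shaking and 10 min of rest, and all 3 conditions again after a further 1 h without shaking. The arrays are written NF0, CF0, RF0, NF1, CF1 and RF1, with the number giving the hours after flow, and each held RNA pooled from 3 experiments. With 1 array per condition there was no replicate spread and no test, so every value below is a single measurement. In place of a replicate error, each log2 difference was set against a local spread, which is the scatter of the differences of the genes nearest to it in mean signal. The local spread ran from 0.085 to 0.21 on the log2 scale and corresponded to a 1.15-fold difference among the dimmest 580 genes and 1.06-fold among the brightest 580. Because the cells were measured in bulk, fewer cells of a kind and less RNA per cell cannot be told apart.

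Shear stress on the surface of an adherent cell is sensed through ion channels, integrin adhesions and the tension of the actin cytoskeleton. Textbook readouts within the first hour are the immediate early genes, whose transcription needs no new protein: serum response factor (SRF), with its cofactors MRTF and TCF, acts at CArG boxes, CREB acts at cAMP response elements, and YAP and TAZ act through TEAD factors on CCN genes. Many of these genes encode transcription factors, while others encode phosphatases and RNA-binding proteins that switch the same signals off.

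Of the osteoblast markers listed for the cell-type check, Col1a1, Col1a2, Sparc and Sp7 passed the filter, 4 of 11. Alpl and Ibsp were measured below it. The chondrocyte markers Sox9 and Col2a1 also passed, as did Pdpn, an osteocyte marker, and Ctsk, an osteoclast protease, whereas none of the 7 endothelial, 7 muscle or 6 adipocyte markers did. None of these markers differed by 3 local spreads between NF0 and CF0, with Col1a1 0.23 higher and Col1a2 at -0.16. The number of detected probes was 14426 for NF0 and 14205 for CF0, and the median signal of detected probes was 105 and 114 units before normalization.

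The typical gene had the same level on both arrays. The median log2 difference (CF0 minus NF0) was -0.0055, and 3204 genes, or 55.2%, lay within 0.1 of 0. The share of genes above 0 was 48.2% (2795 of 5800), beside which the counts above 0 in the lists below are to be read. Against that background, 20 genes were at least 1.5-fold higher with continuous flow (0.345% of the 5800) and 5 were at least 1.5-fold lower (0.0862%). Only 6 genes, 0.103%, were 2-fold higher, and none was 2-fold lower. Read against the local spread, 56 genes were at least 3 local spreads higher (0.966%) and 26 at least 3 local spreads lower (0.448%). This asymmetry depended in part on scaling. When the deposited signals were scaled to a common median instead of by quantile normalization, the median of all genes moved to 0.072, and the split of higher to lower became 31 to 0 at 1.5-fold and 109 to 6 at 3 local spreads. All 20 genes at 1.5-fold higher kept that call under median scaling. The 5 lower genes, shifted with the whole table, were then at -0.58 to -0.49, short of 1.5-fold.

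**Figure D1:**
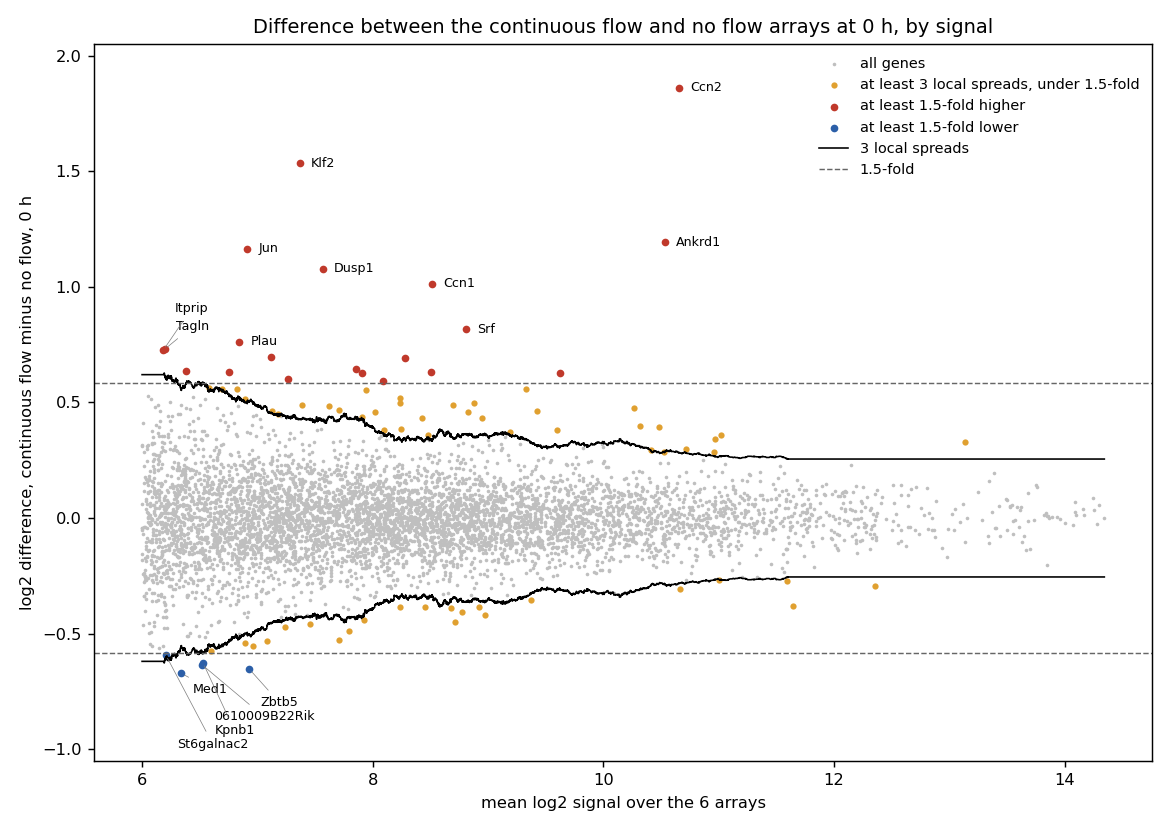
Log2 difference of continuous flow minus no flow at 0 h (vertical axis) against mean log2 signal over the 6 arrays (horizontal axis) for 5800 genes, with lines at 3 local spreads and at 1.5-fold. The 20 genes past 1.5-fold upward include bright genes such as Ccn2 and Ankrd1, whereas the 5 downward ones lie toward its dim end.

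The pair of no flow arrays gives a scale for these counts. These arrays, which differ by 1 h of further culture without flow, showed 6 genes at least 1.5-fold higher (0.103%) and 21 at least 1.5-fold lower (0.362%) at 1 h, and 21 genes (0.362%) and 48 genes (0.828%) past 3 local spreads in the same directions. In all, 27 genes passed 1.5-fold between 2 arrays without flow and 25 did so between CF0 and NF0. The 2 comparisons differed in which direction held more genes and in how far genes moved: the range was -1.02 to 0.91 between the no flow arrays and -0.67 to 1.86 here. The counts at 1.5-fold were thus of like size with and without flow, and the individual genes are given next.

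The genes highest with continuous flow were led by secreted and nuclear YAP targets. Ccn2 (connective tissue growth factor), a matricellular protein that binds integrins and growth factors, had the largest difference on the array. Its log2 signal was 10.04 in NF0, 11.90 in CF0, 11.05 in RF0, 10.13 in NF1, 10.48 in CF1 and 10.34 in RF1. The CF0 level was 3.63-fold that of NF0, a difference of 1.86 or 19.8 local spreads, and exceeded the next highest array by 0.85. Another Ccn2 probe past the filter gave 1.70. Ankrd1, an ankyrin repeat protein of the nucleus and sarcomere, was at 10.44 in NF0, 11.64 in CF0, 11.09 in RF0, 10.15 in NF1, 10.04 in CF1 and 9.83 in RF1. It was therefore 2.28-fold higher (1.19, 12.6 local spreads), with both 0 h flow arrays above all 4 others, and another probe gave 1.33. Ccn1 (CYR61), the sister matricellular protein, was at 8.39 in NF0, 9.41 in CF0, 9.18 in RF0, 8.30 in NF1, 7.99 in CF1 and 7.79 in RF1. That was 2.02-fold higher (1.01, 8.9 local spreads), and its other probes gave 0.95 and 1.13.

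The remaining YAP targets were much less different. Of 17 on the list that passed the filter, 3 were past 1.5-fold, 5 past 3 local spreads and 11 above 0, with a median of 0.09. Amotl2, an angiomotin-like protein that binds YAP, was at 6.67 in NF0 and 6.78 in CF0, and Tgfb2 was at 6.70 and 6.36. The factors themselves lay close to 0, with Yap1 at 0.08 and Wwtr1 (TAZ) at -0.16.

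The immediate early list, which holds mainly transcription factors but also other early proteins such as Zfp36, Ier3, Plk3 and the Gadd45 proteins, had the highest median. Klf2, a zinc finger factor known in endothelium for its induction by shear, was the second highest gene: 6.72 in NF0, 8.25 in CF0, 7.76 in RF0, 6.95 in NF1, 7.20 in CF1 and 7.32 in RF1. The fold was 2.90 (1.54, 10.8 local spreads), CF0 lay 0.50 above RF0, the next array, and NF0 was the lowest of the 6. Jun, the AP-1 subunit, was at 6.72 in NF0, 7.89 in CF0, 7.37 in RF0, 6.47 in NF1, 6.60 in CF1 and 6.41 in RF1. This was 2.24-fold higher (1.17, 7.0 local spreads), and only the 0 h flow arrays stood above NF0. Its partners differed less: Junb was at 6.44 in NF0 and 6.99 in CF0 (0.56), and Fosl2 (FRA-2) at 9.19 and 9.74 (0.56). The difference of Fosl2 was 4.9 local spreads, since brighter genes scatter less. Ier3, an immediate early response protein, was at 9.58 in NF0 and 10.21 in CF0, 1.54-fold higher, with 9.86 in RF0 and 9.33 to 9.39 on the arrays at 1 h. Gadd45b and Gadd45g, growth arrest and DNA damage proteins, were 0.49 and 0.29 higher. A dimmer Gadd45b probe, with a mean of 5.87, went the other way (-0.19). Egr2 was at 7.12 in NF0, 7.58 in CF0 and 7.60 in RF0, so the 0 h flow arrays were level with each other.

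Across the 31 immediate early genes that passed the filter, of 59 listed and 45 in the table, 5 were past 1.5-fold (Klf2, Jun, Srf, Ier3 and Zfp36), 12 past 3 local spreads higher and none past 3 lower. Their median difference was 0.33, against -0.0055 over all genes, and 23 were above 0. The group was not uniform. Egr1, a zinc finger factor of the same class, was at 9.31 in NF0 and 9.27 in CF0 with 9.57 in RF0, a difference of -0.04. Irf1, the lowest by its brightest probe, was at 9.91 and 9.71. Its other probes past the filter went the other way, at 0.08, 0.28 and 0.03. Cebpd was at 7.57 and 7.45. Klf4, an endothelial and epithelial relative of Klf2, was at 7.17 in NF0 and 7.42 in CF0 but at 7.28 in NF1 and 7.88 in CF1, so its larger difference (0.60) was the later one. Plk3, Id2 and Id1 were 0.48, 0.50 and 0.33 higher, each short of 3 local spreads. Fos was measured below the filter, at 5.46 in NF0 and 5.73 in CF0 (0.27). The study's real-time RT-PCR time course found Fos significantly raised after 1 h of continuous flow. How the sizes of the 2 measurements of Fos compare was not tested. Myc, also below the filter, differed by -0.04.

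Some genes that switch MAP kinase and growth factor signals off were among those higher in CF0. Dusp1, a nuclear phosphatase that inactivates p38, JNK and ERK, was at 7.45 in NF0, 8.53 in CF0, 8.02 in RF0, 7.24 in NF1, 7.13 in CF1 and 7.03 in RF1. It was 2.11-fold higher (1.08, 7.7 local spreads), and every array at 1 h lay below NF0. Errfi1 (MIG6), which inhibits the EGF receptor, was at 8.25 in NF0, 8.85 in CF0 and 8.44 in RF0, with 7.61 to 7.70 at 1 h. The 1.51-fold difference (0.59) was accompanied by a -0.55 difference between the no flow arrays themselves. Zfp36 (tristetraprolin), which speeds the decay of AU-rich mRNAs, was at 7.18 in NF0, 7.77 in CF0 and 7.65 in RF0, 1.52-fold higher. Dusp16, a JNK phosphatase, was 0.38 higher. Among 12 MAP kinase feedback genes past the filter, 2 were past 1.5-fold, 3 past 3 local spreads and 9 above 0, with a median of 0.13. The ERK phosphatases Dusp6 and Dusp7 were at 0.11 and -0.18, and the ERK inhibitor Spred1 at -0.17. Of 21 MAP kinase cascade genes none was past 1.5-fold and 14 were above 0, with a median of 0.06. Only Mapk14 (p38 alpha) passed 3 local spreads, or 4.76% against 0.966% of all genes. It was at 7.94 in NF0 and 8.32 in CF0 against 8.03 in RF0.

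**Figure D2:**
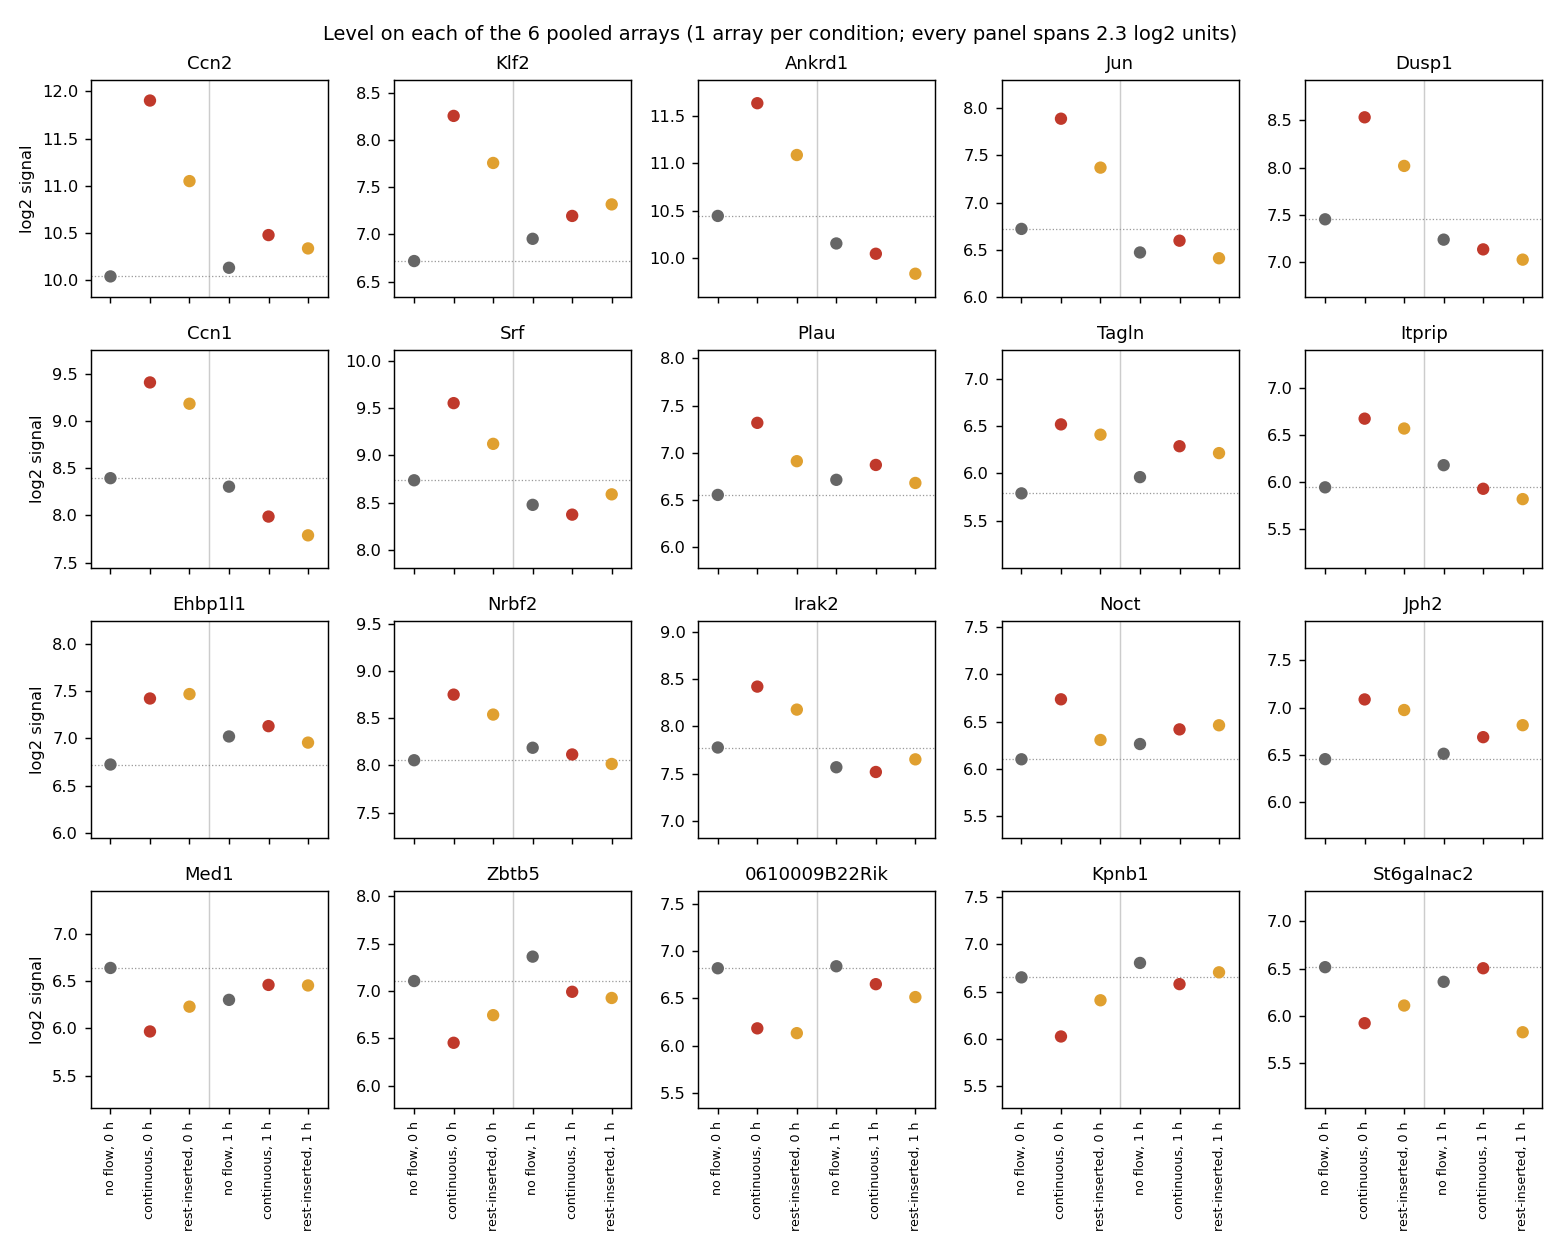
Log2 signal on each of the 6 arrays for the 15 genes with the largest upward and the 5 with the largest downward difference, 1 point per array (1 pooled sample each, no error bars). For Ccn2 the points run from 10.04 in NF0 to 11.90 in CF0. In all but 1 of the 15 upward panels CF0 is the highest point, and Ehbp1l1 is highest in RF0.

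The third group was SRF itself and genes of the actin cytoskeleton. Srf was at 8.74 in NF0, 9.55 in CF0, 9.12 in RF0, 8.48 in NF1, 8.37 in CF1 and 8.59 in RF1, 1.76-fold higher (0.82, 6.7 local spreads). Tagln (transgelin), an actin-binding protein of contractile cells, was at 5.79 in NF0 and 6.52 in CF0 with 6.41 in RF0, 1.66-fold higher. Fhl2, a LIM-domain partner of integrins, was at 8.24 and 8.73. Zyx (zyxin), a focal adhesion and stress fiber protein, was among the brightest genes at 13.02 in NF0 and 13.35 in CF0, and its difference of 0.33 was 3.9 local spreads. Cdc42ep3, an effector of Cdc42 that is listed among the YAP targets, was 0.50 higher, and Pdlim7, an actin-associated LIM protein, was at 10.08 and 10.56. Palld (palladin) and Csrp1, chosen for mention after their values were seen, were 0.43 and 0.28 higher.

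Of 27 SRF and actin genes past the filter, 2 were past 1.5-fold, 5 past 3 local spreads, none past 3 lower, and 22 above 0, with a median of 0.10. The structural actins were read by several probes. The brightest Actb probe was at 14.02 in NF0 and 14.00 in CF0, near the top of the signal range, and the other Actb probes lay from -0.30 to 0.19. The brightest Acta2 probe was at 14.26 and 14.32, and its other probes lay from 0.15 to 0.23. Vcl (vinculin) was at 10.63 in NF0 and 10.68 in CF0 but 0.39 higher at 1 h. Tpm2 and Rnd3 were at -0.19 and -0.22. Among 22 focal adhesion and integrin genes, Zyx alone was past 3 local spreads, or 4.55% against 0.966% of all genes. The alpha 5 integrin Itga5 was at 6.34 and 6.85 (0.51, 2.7 local spreads).

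Promoter sequences are shown for 6 of the 20 genes because SRF, CREB and TEAD are the factors named above for genes of these groups. RefSeq promoter windows of GRCm38.p6, each running from 250 bases before to 50 after an annotated start, matched 17 of the 20 genes higher by 1.5-fold and 49 of the 56 higher by 3 local spreads. Ccn2 was not matched. Capitals mark every match on either strand to 5 motifs. The CArG box is read by SRF, and the cAMP response element, TGACGTCA, is read by CREB. The AP-1 site was searched as TGANTCA, where N is any base. The core of a TEAD site was searched as GGAATG. The TATA box was searched as TATAAA. No matches overlap in these 6 windows. The Srf window is chr17:46556113-46556412 (minus strand), Zfp36 is chr7:28379179-28379478 (minus), Stbd1 is chr5:92602801-92603100 (plus), Dusp1 is chr17:26508423-26508722 (minus), Ankrd1 is chr19:36119795-36120094 (minus) and Ccn1 is chr3:145649936-145650235 (minus). Each is written 5′ to 3′ in the direction of the gene.
Srf: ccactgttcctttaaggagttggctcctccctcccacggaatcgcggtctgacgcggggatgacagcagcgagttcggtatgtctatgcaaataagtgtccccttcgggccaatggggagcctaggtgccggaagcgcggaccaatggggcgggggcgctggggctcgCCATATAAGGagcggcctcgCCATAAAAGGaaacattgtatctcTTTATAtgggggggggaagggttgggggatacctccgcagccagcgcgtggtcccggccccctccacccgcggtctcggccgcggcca
Zfp36: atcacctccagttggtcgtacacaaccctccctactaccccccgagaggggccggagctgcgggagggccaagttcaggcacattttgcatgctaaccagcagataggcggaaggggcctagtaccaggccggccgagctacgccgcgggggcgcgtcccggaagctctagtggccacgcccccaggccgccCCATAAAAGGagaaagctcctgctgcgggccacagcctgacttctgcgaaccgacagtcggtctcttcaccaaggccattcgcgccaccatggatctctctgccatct
Stbd1: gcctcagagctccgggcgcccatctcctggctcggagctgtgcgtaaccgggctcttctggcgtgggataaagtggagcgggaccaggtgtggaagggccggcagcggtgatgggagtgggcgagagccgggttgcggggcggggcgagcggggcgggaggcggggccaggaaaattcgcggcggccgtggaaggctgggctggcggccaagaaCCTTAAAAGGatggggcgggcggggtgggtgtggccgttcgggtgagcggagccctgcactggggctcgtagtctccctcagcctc
Dusp1: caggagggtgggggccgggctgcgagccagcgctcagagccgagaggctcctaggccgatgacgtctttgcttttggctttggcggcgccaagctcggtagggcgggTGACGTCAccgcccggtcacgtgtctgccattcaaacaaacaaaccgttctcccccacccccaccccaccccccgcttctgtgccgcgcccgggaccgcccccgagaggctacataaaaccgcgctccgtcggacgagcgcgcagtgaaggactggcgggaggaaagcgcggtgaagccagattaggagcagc
Ankrd1: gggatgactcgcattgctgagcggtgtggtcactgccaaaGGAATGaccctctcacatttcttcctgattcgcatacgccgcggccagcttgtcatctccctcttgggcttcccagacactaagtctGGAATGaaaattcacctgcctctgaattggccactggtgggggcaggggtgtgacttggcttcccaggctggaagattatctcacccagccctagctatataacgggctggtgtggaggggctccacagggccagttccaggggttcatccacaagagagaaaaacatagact
Ccn1: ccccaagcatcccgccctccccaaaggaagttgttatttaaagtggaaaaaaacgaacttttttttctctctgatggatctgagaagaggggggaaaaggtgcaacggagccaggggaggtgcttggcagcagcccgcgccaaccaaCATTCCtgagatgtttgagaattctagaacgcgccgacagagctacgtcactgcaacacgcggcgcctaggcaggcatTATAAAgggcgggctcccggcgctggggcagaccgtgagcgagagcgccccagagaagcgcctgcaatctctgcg

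Srf held paired CArG boxes beginning at positions -82 and -62 from its start, with a TATA box at -38 on the opposite strand. Zfp36 held 1 CArG box at -58 and Stbd1 (a glycogen-binding protein) 1 at -36. Dusp1 held a full cAMP response element at -143. GGAATG lay at -210 and -123 in Ankrd1 and, on the opposite strand, at -103 in Ccn1, where a TATA box followed at -25. The promoters of Klf2, Jun and Ier3 held none of the 5 motifs.

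Over all 32851 promoters in the table, 1.63% held a CArG box, and over the 6119 promoters of genes past the filter 1.41% did. Among the 20 promoters of the genes 1.5-fold higher the count was 3, and among the 68 promoters of the 49 matched genes past 3 local spreads it was 10, or 14.7%, from Egr2, Fhl2, Lurap1l, Srf, Stbd1 and Zfp36. Several of these promoters are overlapping windows of 1 gene, and by gene the share was 12.2% against 1.67% of the matched genes past the filter. The cAMP response element was in 5.88% of those 68 promoters against 3.43%, AP-1 in 5.88% against 4.54%, GGAATG in 13.2% against 12% and TATAAA in 17.6% against 7.13%. None of the 23 matched promoters of genes past 3 local spreads lower held a CArG box or a full cAMP response element. With shares of 1.41% and 3.43% over the genes past the filter, none of 23 is near the background. The motifs were chosen with the results known, and a match describes letters in a window, not binding.

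Most signalling ligands and receptors were short of 3 local spreads. Of 28 genes of the TGF-beta and BMP list, 3 were past 3 local spreads (Skil, Tgfb3 and Fst), or 10.7% against 0.966% of all genes. None was past 1.5-fold and 20 were above 0, with a median of 0.12. Skil (SnoN), a repressor of SMADs, was at 6.36 in NF0 and 6.91 in CF0 but higher still in CF1 (7.19). Tgfb3 was at 7.81 in NF0 and 8.25 in CF0 and, unlike the other genes past 3 local spreads, was not higher in RF0 (7.77). Follistatin (Fst), which binds activins and was chosen for mention after its value was seen, was 0.28 higher, Inhba, an activin subunit, 0.21 higher, and the receptor Tgfbr1 was at 9.01 and 9.28. Bmp4, Bmpr2 and Id4 were at -0.21, -0.24 and -0.32, and another Id4 probe of like brightness gave -0.09.

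Of 16 growth factor and cytokine ligands none passed either threshold, which in so short a list is near the share over all genes, and 6 were above 0. Tnfrsf11b (osteoprotegerin), the decoy receptor for RANKL, was at 7.65 in NF0 and 7.82 in RF0 and was 0.36 higher in CF0 than in NF0, with 8.27 to 8.39 on the arrays at 1 h, so its level without flow at 1 h exceeded that in CF0. Bdnf was at 7.89 and 7.50, and the chemokine Ccl7 at 8.46 and 8.14. In the cAMP and calcineurin list, 1 of 18 genes was past 3 local spreads, or 5.56% against 0.966% of all genes. This was Rcan1 (DSCR1), a calcineurin inhibitor, at 7.39 in NF0, 7.88 in CF0 and 7.54 in RF0. Rcan1 in CF1 (7.82) was again above NF1 (7.58). The study's real-time RT-PCR immediately after flow went the other way for Tnfrsf11b and Rcan1. There, continuous flow lowered both genes and rest-inserted flow did not. The cause of this disagreement was not tested.

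Among 14 sensors of flow (mechanosensing channels, purinergic receptors and gap junction genes), none passed either threshold, again near the share over all genes. Of these, 10 were above 0, and the median of 0.10 was like that of the SRF and actin list. The largest differences were those of Pkd1 (polycystin 1), at 5.98 in NF0 and 6.46 in CF0, and the pannexin Panx3, at 6.50 and 6.10, each within 2.3 local spreads at the dim end. Piezo1, a stretch-activated channel, was at 6.91 and 7.01.

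Of the 20 genes past 1.5-fold, 9 belonged to none of the lists, namely Plau, Itprip, Ehbp1l1, Nrbf2, Irak2, Noct, Jph2, Mob3a and Stbd1. Plau (urokinase), which activates plasminogen at the cell surface, was at 6.56 in NF0, 7.32 in CF0 and 6.91 in RF0, 1.70-fold higher. Irak2, a kinase below the interleukin-1 receptor, was at 7.78 in NF0, 8.42 in CF0 and 8.18 in RF0, 1.56-fold higher. Its other probe gave 0.91. None of 14 NF-kB targets and regulators past the filter passed either threshold. Over all genes 0.345% were 1.5-fold higher and 0.966% were 3 local spreads higher, so none of 14 is near that share. Nrbf2, a subunit of the autophagy PI3-kinase complex, was at 8.06 and 8.75, and Mob3a, of the MOB family of kinase cofactors, at 8.29 and 8.92. Jph2 (junctophilin 2), which tethers the plasma membrane to the endoplasmic reticulum, was at 6.45 and 7.09. A dimmer Jph2 probe went the other way, from 4.12 in NF0 to the floor in CF0 (-0.80). Ehbp1l1 was the 1 gene of the 20 that was higher in RF0 (7.47) than in CF0 (7.42). The 36 genes past 3 local spreads but under 1.5-fold were 0.28 to 0.56 higher. Besides those described above they included Snai1, a zinc finger repressor of cadherin genes, at 9.37 in NF0 and 9.75 in CF0, Irf2bpl at 8.06 and 8.58, and the F-box protein Fbxo30 at 6.65 and 7.17. In total the 7 signalling lists held 11 of the 20 genes (55%) and 27 of the 56 (48.2%), against 143 of all 5800 (2.47%), with lists that were drawn up knowing these results.

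The genes lower with continuous flow were fewer, dimmer and of mixed function. Med1, a subunit of Mediator that contacts nuclear receptors, was at 6.64 in NF0, 5.97 in CF0, 6.23 in RF0, 6.30 in NF1, 6.46 in CF1 and 6.45 in RF1. The NF0 level was 1.59-fold that of CF0 (-0.67, -3.6 local spreads), and NF0 was also the highest of the 6 arrays. Zbtb5, a zinc finger protein, was at 7.11 in NF0, 6.45 in CF0 and 6.74 in RF0, with 7.36 in NF1. Kpnb1 (importin beta), the carrier of nuclear import, was at 6.65 in NF0, 6.03 in CF0, 6.41 in RF0 and 6.80 in NF1. For these 3 genes CF0 was the lowest of the 6 arrays. The other two were 0610009B22Rik, at 6.82 in NF0 and 6.18 in CF0 but 6.13 in RF0, and the sialyltransferase St6galnac2, at 6.52 and 5.92 but 5.83 in RF1 and, at -2.96 local spreads, the 1 member of the 5 short of 3 local spreads. None of the 5 had another probe past the filter, and the dimmer probes of Med1 and St6galnac2 whose signals were not below the lowest detected ones gave 0.09 each.

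Among the 26 genes past 3 local spreads lower, none belonged to the 7 signalling lists. These lists held 2.47% of all genes, so none of 26 is near that share. The farthest of the 26 in local spreads, though not in log2, was ND1, a mitochondrially encoded subunit of complex I. It was at 11.95 in NF0, 11.57 in CF0 and 11.63 in RF0. The NF1 level of ND1 was lower still (11.34), so the direction turned when NF1 was the reference. Txn1 (thioredoxin) was at 7.92 in NF0, 7.39 in CF0 and 7.49 in RF0, with 7.74 to 7.94 at 1 h. Osr1, a zinc finger transcription factor, was at 7.33 in NF0 and 6.80 in CF0, and the homeobox factor Alx4 at 8.74 and 8.36, with 8.27 in CF1. Cd34 was at 8.05 and 7.56, and the mitochondrial genes Ssbp1 and Idh2 were at -0.42 and -0.39.

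**Figure D3:**
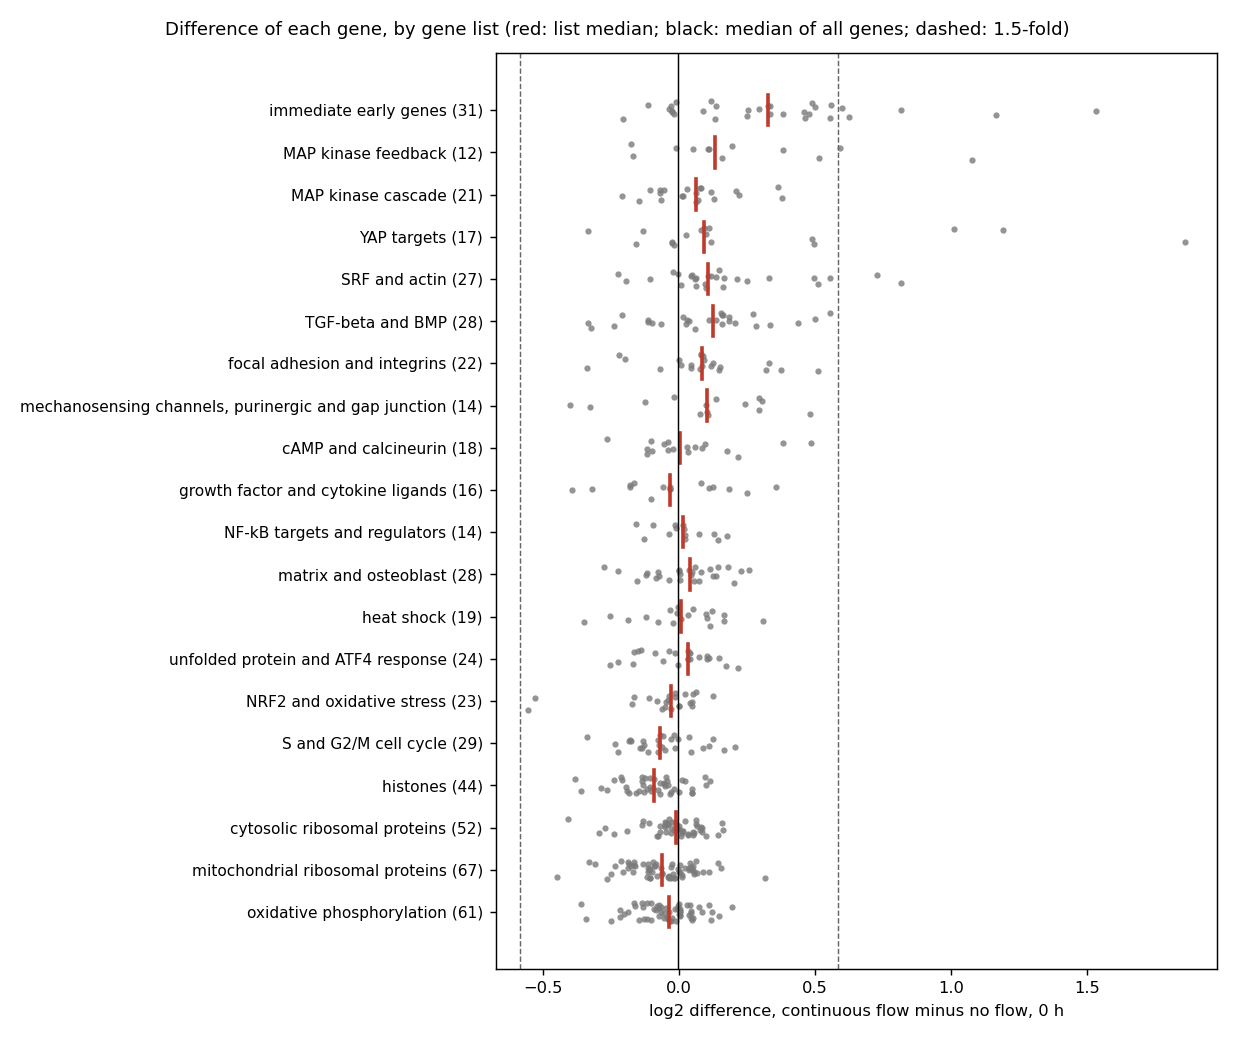
Log2 differences (CF0 minus NF0, horizontal axis) of the members of 20 gene lists, 1 point per gene, with the median of each list in red and the median of all genes in black. The immediate early list has the highest median, 0.33, and the long right-hand tails belong to Ccn2, Klf2 and Ankrd1.

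Lists of basic cell functions stayed close to the median of all genes. Of 52 cytosolic ribosomal protein genes, 2 (Rpl36a and Rps25) were past 3 local spreads lower, or 3.85% against 0.448% of all genes. The median of these 52 genes was -0.01. Histones (44 genes, median -0.09, 9 above 0), mitochondrial ribosomal proteins (67 genes, -0.06, 21 above 0), cell cycle genes (29 genes, -0.07, 7 above 0) and oxidative phosphorylation (61 genes, -0.04, 20 above 0) lay slightly below it, with no gene past 1.5-fold. Heat shock (19 genes), the unfolded protein response (24), cholesterol synthesis (16), hypoxia (20) and matrix and osteoblast genes (28) had medians from 0.003 to 0.06 and no gene past either threshold. In the oxidative stress list (23 genes, median -0.03), Txn1 alone was past 3 local spreads lower, or 4.35% against 0.448% of all genes.

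Rest-inserted and continuous flow at 0 h share the NF0 array, so the 2 differences are not independent and are given side by side. All 20 genes were also above NF0 in RF0, by 0.19 to 1.04 with a median of 0.50, compared with a median of 0.71 in CF0. Of them 8 passed 1.5-fold in RF0, where 0.19% of all genes did. CF0 was the highest of the 6 arrays for 19 of the 20 and for 51 of the 56, against 16% of all genes. Choosing genes by a high CF0 level favors this. With NF1 in place of NF0, CF0 was still the higher array for the 20 genes, by 0.40 to 1.77, and 14 of them passed 1.5-fold, although the genes had been picked for a high CF0 level. All 5 lower genes were below NF0 in RF0 as well, by -0.69 to -0.24, and below NF1 in CF0, by -0.91 to -0.33.

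The genes were chosen for their differences at 0 h, so smaller differences between other arrays follow in part from that choice, and the 1 h values are given as a description. Between CF1 and NF1, arrays that the 0 h differences do not use, the 20 genes lay from -0.32 to 0.35 with a median of 0.07, 11 were above 0 and none passed 1.5-fold, where 0.19% of all genes did. Ccn2 had the largest remaining difference (0.35), and Ccn1 was the lowest, at 8.30 in NF1 and 7.99 in CF1. The 56 genes past 3 local spreads had a median of 0.07 at 1 h, and none passed 1.5-fold. The 5 lower genes lay from -0.37 to 0.16. The difference between the time points could not be tested.

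**Figure D4:**
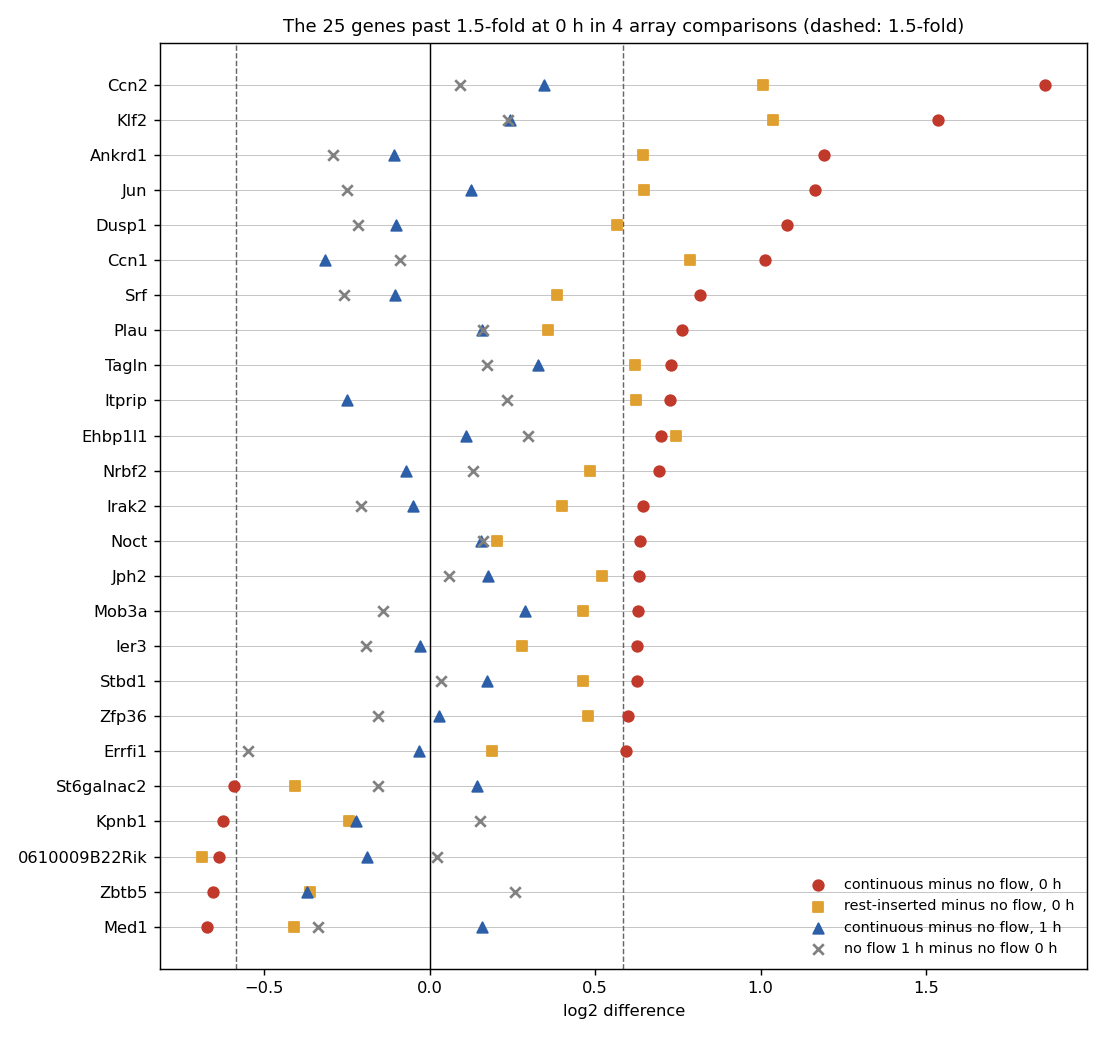
Log2 differences of the 25 genes past 1.5-fold in 4 comparisons (CF0 and RF0 against NF0, CF1 against NF1, and NF1 against NF0), 1 point per gene and comparison. The CF0 and RF0 points, which share NF0, lie on the same side of 0, whereas the CF1 minus NF1 points lie between -0.37 and 0.35.

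Some genes were read by more than 1 probe on the same array. Of the 20 higher genes, 5 had other probes past the filter, and all 6 of those probes also exceeded 1.5-fold, including Mob3a at 0.72. Over the 56 genes, 12 of 12 such probes had the same sign and 7 passed 1.5-fold. For the 26 lower genes only 3 other probes were available, of which 2 had the same sign and none passed 1.5-fold.

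**Figure D5:**
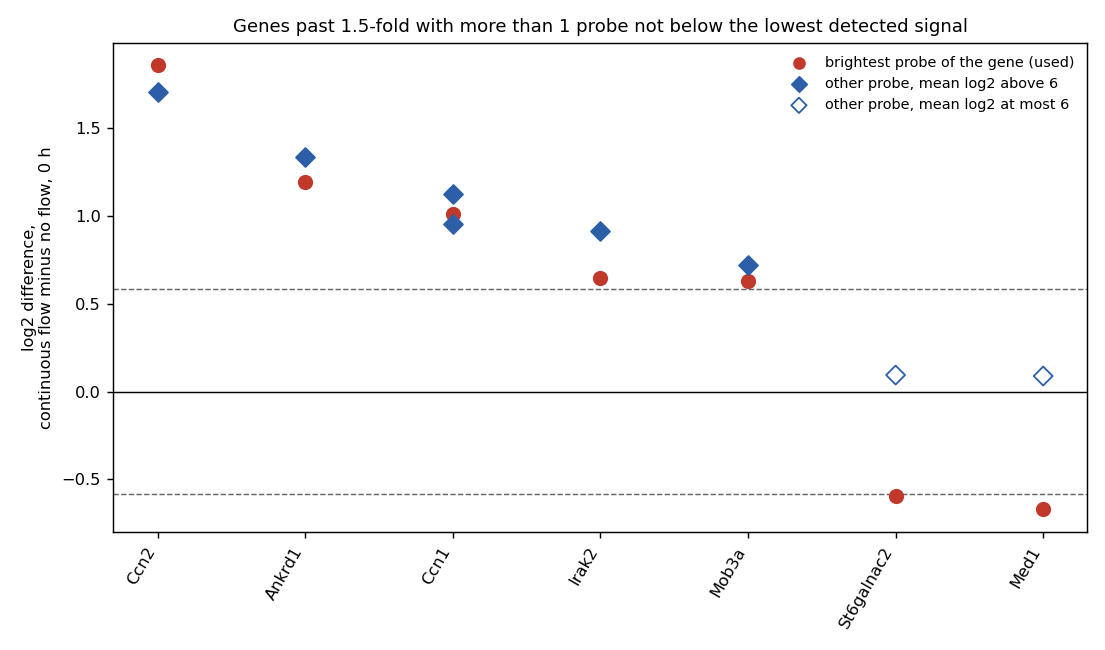
Log2 differences (CF0 minus NF0, vertical axis) of each probe for genes past 1.5-fold with more than 1 probe, with the brightest probe and the others marked and with probes below the lowest detected signal on either array left out. All 6 other probes past the filter of genes higher by 1.5-fold lie above that threshold, whereas the dimmer probes of Med1 and St6galnac2 lie at 0.09.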

How the data were processed

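Total RNA pooled from 3 experiments per condition was hybridized to 1 Illumina mouse whole-genome bead array per condition. The authors deposited intensity values from which GenomeStudio had subtracted background, with a detection p-value for each probe, and a second table of log2 values. Per the study's methods, the deposited log2 values were made by quantile normalization, setting values under 10 to 10, taking log2 and keeping probes with a detection p-value under 0.01 on at least 1 array. Rebuilding them from the deposited intensities gave the same 15686 probes, with a largest deviation of 5e-08. The detection column of the rest-inserted 1 h array repeats the signal in part and was not used. Depth is not defined for arrays, and the number of arrays, 1 per condition, limits the precision.

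Platform annotation gave 1 gene symbol for 13393 probes, several for 8 and none for 2285, and 13380 were updated to RefSeq symbols through the Entrez identifier. The probe with the highest mean log2 stood for a gene, and genes with a mean above 6 over the 6 arrays were kept. The local spread is 1.4826 times the median absolute deviation of the CF0 minus NF0 differences of the 501 genes nearest in mean log2. It was tested on simulated data. Log2 differences are of the deposited values, whose floor understates differences of dim genes. Genes were named by rule: the 30 highest and 20 lowest differences, the 15 highest and 15 lowest in local spreads, all measured members of the main lists and up to 6 of the others. Palld, Csrp1, Fst and Lurap1l were added after their values were seen. One gene that the rule names is not reported here. The genes, lists and motifs were chosen with earlier results of these data known. RefSeq promoters matched 4799 of the 5800 genes. Alternatives varied the reference array, the normalization, the floor, the filter, the probe rule, the window and the fold. Python 3.11.15, numpy 2.4.6, pandas 2.3.3 and matplotlib 3.10.9 were used.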

Additional observations from a re-analysis of the deposited data

Results flagged for a closer look

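Among genes past 3 local spreads at 0 h, 3 lay at least 2 local spreads on the other side of 0 at 1 h (CF1 minus NF1), namely Ccn1 at -0.316, ND1 at 0.339 and Rpl36a at 0.235 on the log2 scale. The difference between the time points was not tested.

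Below the filter on mean level, 5 genes detected on both 0 h arrays were at least 2-fold higher with continuous flow. Dusp8, a JNK phosphatase, was at 5.45 in NF0, 6.76 in CF0 and 6.54 in RF0, a log2 difference of 1.3. Nppb, which encodes brain natriuretic peptide, was at 5.78 in NF0 and 6.96 in CF0 (1.18). Suox (sulfite oxidase) was at 4.04 and 5.29 (1.25). Egr3, an immediate early zinc finger factor, and Acta1, the skeletal muscle actin that SRF regulates, had log2 differences of 1.66 and 1.02. In all, 33 of the 2929 dim genes were 2-fold higher and detected in CF0, and 27 were 2-fold lower and detected in NF0. The 2 lower genes detected on both arrays were Mlycd, at 5.20 in NF0 and 4.19 in CF0 (-1.01), and 2900060B14Rik, at 5.37 and 4.22 (-1.15).

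Of 1056 probes past the filter without a gene name, 2 were at least 1.5-fold higher (0.189%) and 3 lower (0.284%). The higher ones were ILMN_2420353, at 8.05 in NF0 and 8.70 in CF0 (0.649), and ILMN_2770609, at 6.05 and 6.64 (0.593). The lower ones were ILMN_2536053, at 6.69 and 5.78 (-0.91), ILMN_1256234, at 6.45 and 5.62 (-0.82), and ILMN_2755660, at 7.81 and 7.19 (-0.62).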

How the results depend on the processing

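With 1 pooled array per condition no replicate could be left out, and no paired analysis was possible because no condition had replicate arrays. No result above carries a replicate error. A higher floor and detection on both arrays could not change a call, since all 5800 genes were detected on both arrays and the called genes lay above that floor. With NF1 as the reference the counts were 38 higher, 10 lower and 8 immediate early genes higher, keeping 14 of the 20 and 3 of the 5, and ND1 turned to 0.23. Averaging all probes of a gene gave 22 higher genes, among them all 18 of the 20 still past the filter, and 3 lower genes, which were all 3 of the 5 still past it. Median scaling gave 31 higher and 0 lower, and 109 higher and 6 lower at 3 local spreads. Adding a pseudocount of 50 to the signal, which compresses differences of dim genes and let 8352 genes pass the filter, gave 12 higher (9 of the 20), 0 lower and an immediate early median of 0.17. Without the filter, which adds dim genes, 230 were higher and 249 lower, and with the mean above 8 it was 8 higher, 0 lower and 2 immediate early genes. At 2-fold the counts were 6 higher, 0 lower and 2 immediate early, and at 1.3-fold 90, 68 and 13. Windows of other widths gave 55 or 57 higher and 26 or 31 lower genes at 3 local spreads. Of 312 named genes, 147 moved by more than the local spread with NF1 as the reference, 58 with the mean of NF0 and NF1, 24 with the pseudocount and none with median scaling, and of 278 with a mean over probes 44 did. The low signal of the 5 lower genes limits what can be read from them, and the cause of the differences between settings was not tested otherwise.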
